A study of Homo sapiens with 8 samples.

Results

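The comparison described here is the 18 h course of alpha-amanitin in MDA-LM2 cells depleted of TARBP2. It rests on 4 of the 8 arrays of the study, chosen by their titles, as 2 arrays at 18 h against 2 at 0 h. MDA-LM2 is a derivative of the breast cancer line MDA-MB-231 that was selected for metastasis to the lung. The labels give 48 h after transfection for all 8 arrays, at 0 h and at 18 h alike. The groups labelled TARBP2 knock-down received siTARBP2-1 or siTARBP2-2, so each siRNA was measured on 1 array at each time. The 0 h group is labelled untreated, and the 18 h group had 10 µM of alpha-amanitin for 18 h. The other 4 arrays carried cells given siControl, at the same times and dose, and are used here only to test where the knock-down cells differed. The series text calls those cells mock-transfected while the sample titles name a control siRNA. Probes on these Illumina BeadChips were kept where both arrays of at least 1 of the 2 times had a detection p-value under 0.01, which held for 17606 of 47321 probes.

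Alpha-amanitin binds RNA polymerase II and stops it from moving along DNA. RNA polymerase II then makes little or no new messenger RNA, and each existing transcript is lost at its own rate. Messages for immediate-early factors and cytokines are known as short-lived, and those for ribosomal proteins and metabolic enzymes as long-lived. RNA polymerases I and III and the mitochondrial polymerase are less sensitive to the drug or not sensitive. TARBP2 binds double-stranded RNA and works with Dicer in loading small RNAs into the silencing complex, and it has also been described as binding structured elements in messenger RNAs. No table used here pairs the probes with genes. The level of TARBP2, the markers of the cell line and the gene lists for this system were therefore not analysed here, and the results concern groups of probes and 4 probes by their identifiers. Nothing in the labels says that the arrays are independent experiments, so p-values measure only how far these arrays varied, which may be technical. The labels do not settle whether the 18 h cells had 18 h more in culture. An effect of such extra time and one of the drug cannot be told apart.

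Before any normalization, the 18 h arrays of knock-down cells had lost signal in the middle of the detected range and gained it from the 97th to the 99th percentile. The 80th percentile of all probe signals was 421 with siTARBP2-1 and 447 with siTARBP2-2 at 0 h, and 352 and 349 at 18 h. Both 18 h arrays lay below both 0 h arrays, at 0.811 and 0.803 of the 0 h mean. The 99th percentile went the other way, from 13296 and 13904 at 0 h to 16211 and 16317 at 18 h, which was 1.19 and 1.20 of the 0 h mean. Again the times did not overlap. With 2 arrays against 2, an exact permutation test cannot give a p below 0.33, so these shifts carry no test.

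**Figure D1:**
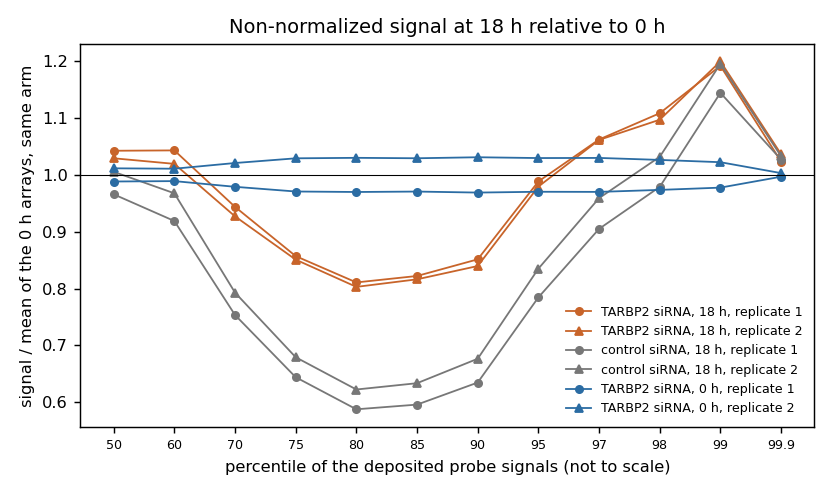
Percentiles of the deposited, non-normalized probe signals (x axis, percentiles not to scale) as a ratio to the mean of the 2 arrays at 0 h of the same arm (y axis), with 1 line for each knock-down array and each 18 h control array, and no error bars. The 18 h arrays of knock-down cells dip to 0.811 and 0.803 at the 80th percentile and rise to 1.19 and 1.20 at the 99th, and the 18 h control arrays dip further, to 0.588 and 0.622 at the 80th.

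Fewer probes held 50% of the summed signal at 18 h. Among the 17606 probes, the brightest 1071 and 1094 probes held 50% of the summed signal on the 0 h arrays, and 898 and 894 probes held it at 18 h. The share of the brightest 100 probes did not separate the times, at 10.2% and 9.76% at 0 h and 9.88% and 9.99% at 18 h. The number of detected probes did not separate the times in knock-down cells, at 16580 and 17143 at 0 h and 16617 and 16920 at 18 h. Control cells started from similar distributions and their 80th percentile moved further. That percentile was 452 and 461 at 0 h and 268 and 284 at 18 h, or 0.588 and 0.622 of the 0 h mean. The 99th percentile of the 18 h control arrays was 1.14 and 1.20 of the 0 h mean. The brightest 1091 and 1095 probes held 50% of the signal at 0 h in control cells, against 750 and 770 at 18 h. In control cells the brightest 100 probes held 9.83% and 9.85% at 0 h, and 11.1% and 10.7% at 18 h. The 4 control arrays detected 16788 and 17619 probes at 0 h and 16220 and 15541 at 18 h. Whether these shapes differ between the arms was not tested, and the amount of RNA per cell is not measured by these arrays. A loss of RNA from all transcripts and a smaller number of cells cannot be told apart.

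After background correction and quantile normalization of the 4 arrays, most transcripts had a different relative level at 18 h. By limma's test 14022 probes changed (79.6% of those kept, Benjamini-Hochberg adjusted p under 0.05), of which 7540 rose (42.8%) and 6482 fell (36.8%). The SD of the 18 h change over probes was 1.03 log2 units, against 0.169 for the difference between the arrays at 0 h and 0.174 at 18 h. For 15972 probes (90.7%) both 18 h arrays lay above both 0 h arrays, or both below. The smallest called change was 0.19 log2 units and the median standard error was 0.084. Quantile normalization gives all arrays 1 distribution, so each direction is relative to the other transcripts.

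Under other scalings the balance of directions moved while the number of calls stayed between 13681 and 14739. Of the calls, 53.8% were higher at 18 h after quantile normalization and 46.5% after cyclic loess. Scaling to a common median over all probes gave 40.4% higher, with the median change over probes at -0.16 log2 units in place of 0.085. Scaling to the median of the kept probes, which was chosen after seeing the data, gave 62.4% higher, with a median of 0.30. The authors' own normalized values gave 53.8%. Under all 5 of these scalings 5414 probes (30.8%) rose and 5532 (31.4%) fell. Only 393 probes (2.23%) were called in opposite directions by any pair of them.

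Probes kept through 1 time alone were selected in part for a difference and are set apart here. Of the 17606, 14824 were detected on both arrays of both times. Within these, 11522 (77.7%) changed, 6353 higher and 5169 lower. A further 1459 probes passed at 0 h alone, of which 1069 were undetected on both 18 h arrays and 390 were detected on 1. Another 1323 passed at 18 h alone, with 889 undetected on both 0 h arrays and 434 detected on 1. Just inside the detection threshold, 825 probes with a detection p-value of 0.005 to 0.01 had a median signal of 120. The 629 probes just outside it, up to 0.015, had a median of 114, and all kept probes 474.

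After quantile normalization rises outnumbered falls among small changes, and falls outnumbered rises among large ones. Past 1.5-fold, 5040 called probes rose and 4644 fell. Past 2-fold the order turned, with 2516 higher and 2912 lower. Past 4-fold lay 942 probes (5.35%), of which 286 rose (1.62%) and 656 fell (3.73%). Beyond that, past 8-fold 46 and 103, and past 16-fold 8 and 12. Among probes detected at both times the same turn was seen, with 4036 against 3450 past 1.5-fold and 138 against 390 past 4-fold. The 1st percentile of the change was -2.73 log2 units and the 99th was 2.23. Past 4-fold, falls exceeded rises under each scaling tried, from 513 falls against 400 rises with the median of the kept probes to 1066 against 159 with the median of all probes.

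**Figure D2:**
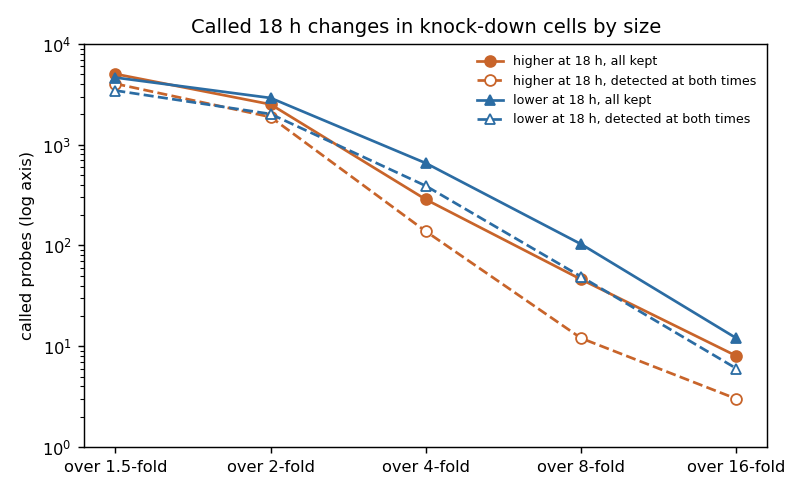
Number of probes called in knock-down cells (y axis, log scale) past each size of the 18 h change (x axis), for probes higher or lower at 18 h, among all 17606 kept probes and the 14824 detected at both times. The lines cross between 1.5-fold and 2-fold, and past 4-fold 656 falls stand against 286 rises.

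Picking probes for a large fall favours high levels at 0 h, and picking for a large rise favours low ones. Of the probes past 4-fold, 266 falls were kept through 0 h alone and 148 rises through 18 h alone. The starting levels are therefore given as a description, and nothing is read from them. The probes that fell over 4-fold came from above the middle of the range. Their median level was 9.20 log2 units at 0 h and 6.52 at 18 h, where the median of all kept probes was 8.62 at both times. On both 18 h arrays 219 of the 656 were undetected, and 47 were detected on 1. Probes that rose over 4-fold started low, at a median of 5.95, and reached 8.50. On both 0 h arrays 127 of these 286 were undetected, and 21 were detected on 1. With every undetected array set to the lowest level detected on it, where that was higher, 514 of the 656 falls and 203 of the 286 rises stayed past 4-fold. The median change was then -2.25 in place of -2.43 for the falls and 2.14 in place of 2.33 for the rises.

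The size of the change also depended on the level of the probe. The kept probes were divided into 5 bins of nearly equal size by their mean over the 4 arrays. In the dimmest bin 79.3% changed, in the next 3 bins 82.1%, 83.2% and 82.8%, and in the brightest 70.8%. The SD of the change was 1.19 log2 units in the second bin and 0.73 in the brightest. Over 4-fold, 112 probes rose and 196 fell in the second bin, against 6 and 51 in the brightest. The median standard error was also highest in the dimmest bin, at 0.110, and lowest in the brightest, at 0.077. Only 27.9% of the dimmest bin was detected at both times.

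**Figure D3:**
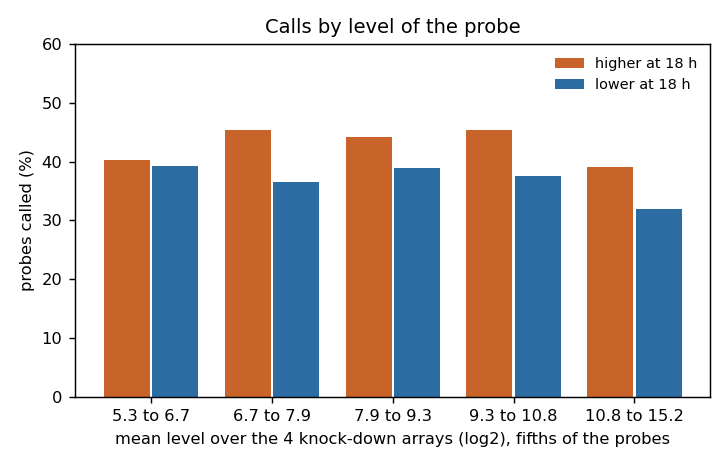
Share of probes called higher or lower at 18 h in knock-down cells (y axis, percent) in 5 bins of equal size by mean level over the 4 arrays (x axis, log2 units). After quantile normalization each bin holds more rises than falls, and the brightest bin has the fewest calls, 39.0% higher and 31.9% lower.

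A probe without a call is not shown to be stable. Of the 3584 probes not called (20.4%), 3188 had a 95% confidence interval of the change within 1.5-fold in either direction, and 396 had an interval that reached beyond it. The largest change without a call was 1.09 log2 units.

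The siRNAs gave nearly the same 18 h change. The changes with siTARBP2-1 and siTARBP2-2 come from different arrays, which were normalized together and share the cell line, dose and study. Whether they come from independent experiments is not given in the labels. Across the 17606 probes they correlated at r = 0.973 (Spearman 0.967), as a description over probes, and had the same sign for 16439 (93.4%). Of the 660 probes that fell over 4-fold with siTARBP2-1, 572 (86.7%) did so with siTARBP2-2 too, and 659 were lower by over 2-fold with it. Their median was -2.41 log2 units with the siRNA that chose them and -2.43 with the other. Of the 296 that rose over 4-fold with siTARBP2-1, 236 (79.7%) did so with siTARBP2-2 and all 296 were higher by over 2-fold. Read in the other direction, the 572 and 236 were 84.9% of the falls and 83.7% of the rises chosen on siTARBP2-2.

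Few probes set the siRNAs apart. The changes differed by over 2-fold for 43 probes (0.244%), of which 9 were detected at both times. In 20 of the 43 the siTARBP2-2 value was the lower one, and in 23 the higher. For no probe did the changes have opposite signs while both were over 2-fold. With 1 array per siRNA and time, a difference between the siRNAs cannot be tested.

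**Figure D4:**
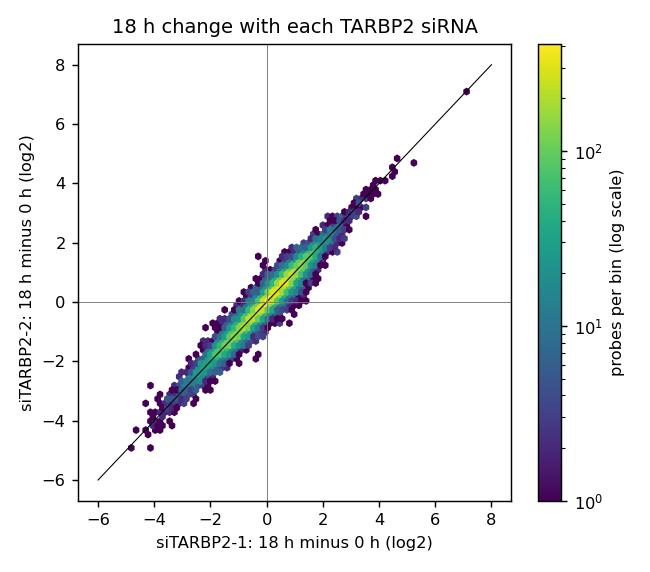
The 18 h change of each of 17606 probes with siTARBP2-1 (x axis) and siTARBP2-2 (y axis), in log2 units, with the colour giving the number of probes per bin on a log scale. The probes follow the line of equality at r = 0.973, and 1 probe stands alone at a rise of 7.12 and 7.10.

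The largest rise belonged to probe ILMN_1881909. In knock-down cells its deposited signal was 310 with siTARBP2-1 and 313 with siTARBP2-2 at 0 h, and 32574 and 30854 at 18 h. It was detected on all 4 arrays, and the times were far apart. The normalized level went from 7.81 ± 0.058 to 14.91 ± 0.073 log2 units (SD, n = 2), a rise of 7.11 ± 0.080 (SE), or 138-fold (limma adjusted p = 7.37e-06). This took the probe from above 37.7% of the kept probes at 0 h to above 99.5% at 18 h. The next largest rise of any kept probe was 4.98 log2 units. No source used here says which transcript the probe reads.

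That next rise was of ILMN_1739423. Its signal was 126 and 152 at 0 h, close to the background, and 2407 and 2261 at 18 h. The change was 4.98 ± 0.13 log2 units (SE), or 31.5-fold (limma adjusted p = 9.28e-06). The 0 h signals were near background, and the size of the change depended on the processing. It was 4.15 log2 units without background correction and 4.18 in the authors' normalized values.

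The lowest fitted changes were of ILMN_2388800 and ILMN_3242603, both below detection at 18 h, so their order among the large falls is not established. For ILMN_2388800 the signal was 1674 and 1814 at 0 h and 119 and 117 at 18 h. On the background-corrected scale the fall was at least 25.8-fold, and the fitted change was -4.82 ± 0.070 log2 units (SE, limma adjusted p = 8.60e-06). Without background correction the change of ILMN_2388800 was -3.80. The signal of ILMN_3242603 went from 912 and 1066 at 0 h to 107 and 83.5 at 18 h. On the background-corrected scale its fall was at least 13.9-fold (fitted change -4.56 ± 0.19, SE, limma adjusted p = 1.45e-05), and -3.29 log2 units without background correction. These bounds hold only on the background-corrected scale, and the level left at 18 h was not measured.

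**Figure D5:**
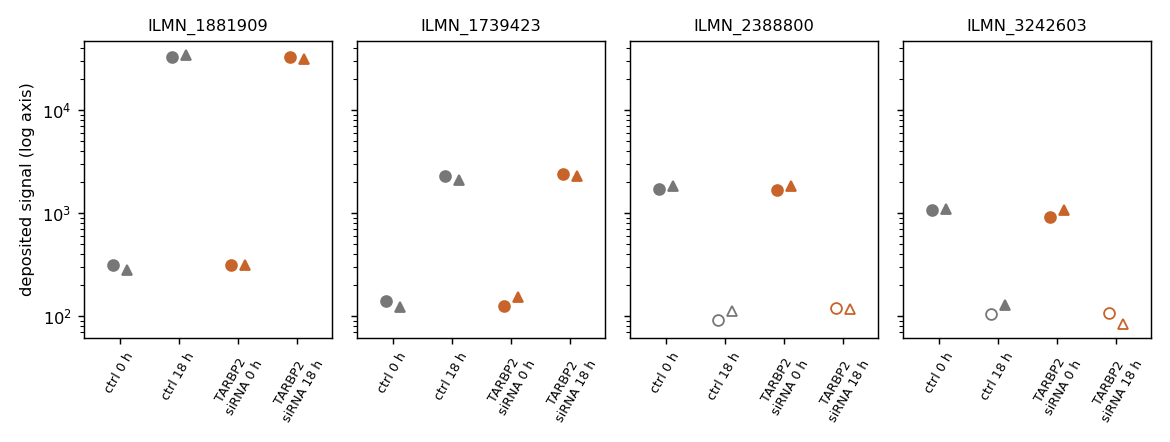
Deposited signal (y axis, log scale) of the 4 named probes on all 8 arrays, with circles for replicate 1, triangles for replicate 2 and open symbols where the detection p-value was 0.01 or more. Control arrays are grey and knock-down arrays orange, and in both arms the 0 h and 18 h values of each probe are far apart.

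In control cells these 4 probes had 18 h changes of the same sign. The control signals of ILMN_1881909 were 314 and 282 at 0 h and 32262 and 34220 at 18 h, and those of ILMN_1739423 139 and 122.5 against 2269 and 2098. For the falls, ILMN_2388800 stood at 1704 and 1819 at 0 h and at 91.6 and 112.4 at 18 h, both below detection, and ILMN_3242603 at 1073 and 1090 against 104.1 and 129. For ILMN_1881909 the 18 h change was 7.36 log2 units in control cells and 7.19 in knock-down cells when all 8 arrays were normalized together, a difference of -0.17 (95% interval -0.48 to 0.15, limma adjusted p = 0.428). The difference was -0.30 for ILMN_1739423 (-0.81 to 0.20, limma adjusted p = 0.368). Neither difference passed the test, and the intervals leave room for differences of the sizes they span. For ILMN_2388800 none of the 4 arrays at 18 h detected the probe, and for ILMN_3242603 only 1 did, the control array with a signal of 129. Most levels left at 18 h were thus below detection, and nothing is read from the fitted differences of these falls. The difference was 0.16 for ILMN_2388800 (-0.42 to 0.74, limma adjusted p = 0.687). For ILMN_3242603 it was -0.85 (-1.60 to -0.09, limma adjusted p = 0.123). Under the other settings tried, the difference lay from -0.14 to 0.49 for ILMN_2388800 and from -1.19 to -0.48 for ILMN_3242603.

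Across all probes, the test of the difference between the arms called 2325 of 18078 probes (12.9%), 1283 of them higher (7.10%) and 1042 lower (5.76%) in knock-down cells. Probes below detection on some arrays were tested too, and how many calls rest on such levels was not counted. Of the 17606 probes kept in knock-down cells, 979 (5.56%) had a change over 4-fold of the same sign in control cells, and 13421 (76.2%) were called there with the same sign. In knock-down cells 655 probes fell over 4-fold in this fit (3.62%), of which 528 (80.6%) also fell over 4-fold in control cells and 654 fell by the test there. The difference was called for 95 of the 655 (14.5%), in 34 cases higher and in 61 lower in knock-down cells, and by over 2-fold in 0 and 13. Of the 282 that rose over 4-fold (1.56%), 192 (68.1%) did so in control cells and all 282 rose by the test there. The difference was called for 49 of them (17.4%), 37 higher and 12 lower, and by over 2-fold for 7 and 1. These probes were picked for large values in knock-down cells, which favours differences away from 0 in those cells, so nothing is read from these splits. Of all 7474 probes called higher at 18 h in knock-down cells here, 6489 (86.8%) were also called higher in control cells and 89 were called lower. Of the 6451 called lower, 5697 (88.3%) were called lower in control cells and 82 higher.

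The number of differences between the arms changed with single arrays. It was 846 and 713 without replicate 1 or 2 of the knock-down arrays at 0 h, 761 and 602 without either at 18 h, and 334 and 528 without either control array at 0 h. Without either control array at 18 h it was 1864 and 1688. Scaled to the median of all probes, 5455 probes were called, 91.5% of them higher in knock-down cells against 55.2% after quantile normalization, with a median difference of 0.23 log2 units. Beside this stands the smaller drop of the deposited signals in knock-down cells at the 80th percentile. The part of that drop in these calls was not tested.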

How the data were processed

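The 8 arrays held biotin-labelled total RNA, 2 per group, grouped by sample title. The authors deposited non-normalized signals on a linear intensity scale, each beside its detection p-value, as the file headers show. A second deposited table of intensity values had nearly equal sorted values in all 8 columns, to within 1.72%. Per the submitters' processing notes lumi was used. No version or setting is given in the sources used here. A deposited table of stability ratios by transcript accession was not used here, since it could not be joined to the probes.

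Signals of the 4 knock-down arrays were corrected and normalized with neqc (limma 3.58.1, R 4.3.3, offset 16, quantile normalization, negative controls inferred from the detection p-values) and fitted with 1 coefficient per group. Residual degrees of freedom were 2, and the prior of eBayes gave 3.64 more. Tests were 2-sided with Benjamini-Hochberg adjustment over all kept probes. The difference between arms came from all 8 arrays, on probes detected on both arrays of at least 1 of the 4 groups. An undetected probe's fold is a bound, with each such array at the higher of its own level and the lowest level detected on that array. The fits were tested on simulated data. Replicate arrays shared identical signals on at most 0.33% of probes and were kept apart. The number of arrays limits the precision.

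The arrays, probes, tests and rule for named probes (the 2 largest rises and falls among called probes whose arrays did not overlap) were chosen with earlier results of these data known. Other normalizations, filters, a variance trend, the siRNA number as a block and leaving out each array were tried.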

Additional observations from a re-analysis of the deposited data

Results flagged for a closer look

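In the 18 h change, 2325 of 18078 probes set the knock-down cells apart from the control cells by limma's test of the difference itself, which is why it is listed here. Of these, 2254 were among the 17606 probes kept in knock-down cells, 1242 higher and 1012 lower there. With the replicate number as a block the test called 800 probes, without single arrays 334 to 1864, and with median scaling 5455. By over 2-fold 131 were higher and 64 lower. Probes below detection on some arrays were among those tested. How many of these differences rest on such levels was not counted.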

How the results depend on the processing

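The count of 18 h changes in knock-down cells stayed within 1.5 times under all 14 alternatives, from 11851 with detection on all 4 arrays required to 14739, and from 13031 to 13160 when 1 array was left out. With the siRNA number as a replicate block it was 13979. The deviations of same-numbered arrays, which carry the same siRNA by title, correlated at -0.00053 over probes. No deviation shared by siRNA was thus seen over the probes as a whole. The count over 4-fold was 942, and 921 to 990 when 1 array was left out. It was 357 without background correction, 373 in the authors' normalized values and 528 when detection on all 4 arrays was required. The last setting leaves out the probes kept through 1 time alone, which held 148 of the 286 rises and 266 of the 656 falls. The SD of the 18 h change over probes was 0.82 log2 units in the authors' normalized values, against 1.03 after neqc. Why the counts of 357 and 373 were lower was not tested. The siRNAs shared a sign on 16439 probes, and on 33042 of 47321 without a filter, where more probes were counted. The difference between the arms (2325) was called for 800 probes with a replicate block within each arm, 5455 with median scaling and 334 to 1864 with 1 array left out, and the cause was not tested. The 4 named probes kept direction and call in the 18 h change under all alternatives that included them. Levels below detection are bounds.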
